A study of Rattus norvegicus with 4 samples.

Results

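Egr1, Egr2, Egr3 and Egr4 are zinc finger transcription factors of one family. Nab1 and Nab2 are proteins that bind Egr1, Egr2 and Egr3 and repress what these switch on. The 6 genes are described here across 4 arrays of total RNA from the adrenal medulla of rats. The medulla is the inner part of the adrenal gland, where chromaffin cells make adrenaline and noradrenaline. The members were every probe set, a group of short probes that reports on a transcript, whose platform annotation names 1 gene only and that gene is one of these 6. That gave 9 probe sets among 20826 with a single gene symbol, and 6 genes among 14217. Egr2, Egr4 and Nab1 had 2 probe sets each, and Egr1, Egr3 and Nab2 had 1 each. The rule itself goes by gene name, though the 6 genes were proposed with earlier results of these data known.

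Of the arrays, 2 were made from rats left unstressed and 2 from rats held immobile for 2 h, a form of stress in common use with rodents. The labels give no strain, sex, age or genotype, and do not say whether arrays of a group came from separate animals or from pools, so a p-value speaks only for the scatter among these arrays and that scatter may be technical. They also do not say how soon after immobilization tissue was taken. Precision is limited throughout by having 2 arrays a group.

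The Egr genes are classic immediate early genes: their transcription starts within minutes of a stimulus, without new protein synthesis. Extracellular signal-regulated kinases act on them through serum response factor (SRF) and its ternary complex partners, which sit on a DNA element called the CArG box, and cyclic AMP acts through CREB on cAMP response elements. The Egr proteins bind GC-rich boxes in other genes, including that of Pnmt, the enzyme that makes adrenaline. Nab proteins dock on Egr1, Egr2 and Egr3 and recruit the NuRD chromatin complex. Nab2 is itself known as a gene that Egr proteins induce, which closes a feedback loop. Nab1 is made more steadily in most tissues.

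The Egr genes are textbook targets of SRF and CREB, though whether either acted on them here was not tested. The stretches of promoter below show motif matches before the starts of Egr2, Egr4 and Nab1. They come from RefSeq on the GRCr8 rat assembly, whose table held 5 of the 6 genes and not Egr3. Capitals mark the CArG box, the core TGACGT of the cAMP response element and the Egr box GCGNGGGCG, each searched on both strands, so a core on the other strand reads ACGTCA. The first stretch, of Egr2, lies at chr20:21054502-21054531 on the minus strand and covers bases -90 to -61 from the start in that table. RefSeq's longest transcript model of Egr2 begins 760 bases further upstream.
Egr2: cctcagtCCATATATGGgcagcgACGTCAc
The second, the 250 bases before the start of Egr4, lies at chr4:119607818-119608067 on the minus strand.
Egr4: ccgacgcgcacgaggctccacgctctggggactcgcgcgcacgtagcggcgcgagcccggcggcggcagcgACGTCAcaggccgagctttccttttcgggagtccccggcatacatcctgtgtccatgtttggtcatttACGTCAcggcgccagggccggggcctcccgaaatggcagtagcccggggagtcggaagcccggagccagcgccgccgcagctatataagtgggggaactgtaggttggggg
The third, bases -250 to -101 of Nab1, lies at chr9:56545392-56545541 on the plus strand and shows 2 of its Egr boxes. RefSeq's gene record of Nab1 begins 95 bases upstream of the start used here.
Nab1: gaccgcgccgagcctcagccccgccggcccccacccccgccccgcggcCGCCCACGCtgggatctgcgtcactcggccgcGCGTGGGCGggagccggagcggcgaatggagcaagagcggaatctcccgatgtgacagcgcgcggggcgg

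Within the 250 bases before the start, Egr1 held 2 CArG boxes and 2 cores of the cAMP response element, and Egr2 held 1 of each. In both genes a CArG box lay at bases -83 to -74 and a core at -67 to -62, so the pair had the same spacing and the same distance from the start. Egr4 held 2 cores and no CArG box, Nab1 held 3 Egr boxes, and Nab2 held none of these motifs. Of 33469 rat promoters of that length, 1.5% held a CArG box, 6.95% the core and 4.29% the Egr box. A CArG box together with a core stood in 25 of them, or 0.0747%, and Egr1 and Egr2 were 2 of these 25. The full palindrome TGACGTCA, which contains the core, stood in 1.59% and in none of the 5 genes. A match is a description of these letters and not a measured site.

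**Figure D1:**
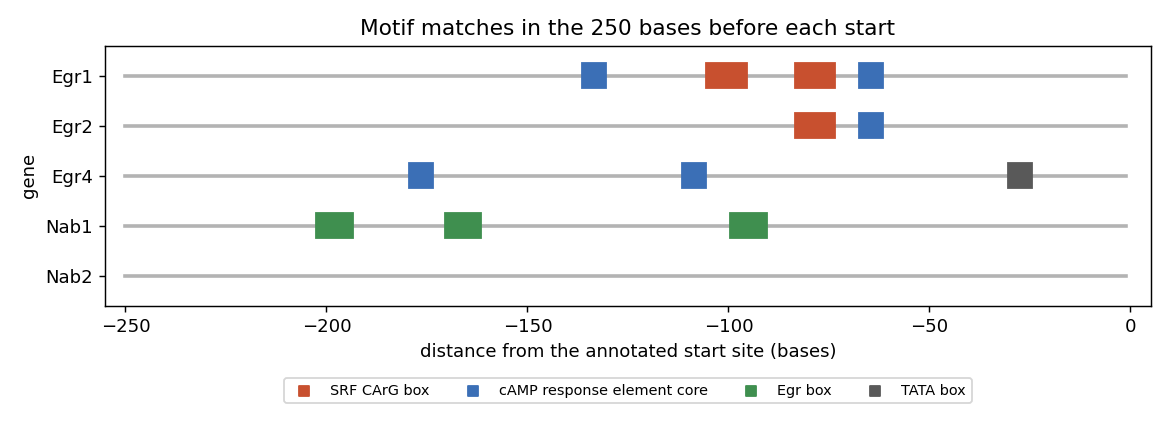
Positions of motif matches in the 250 bases before the annotated start of 5 genes, in bases from the start. Coloured boxes are matches on either strand, and Egr1 and Egr2 share a CArG box at -83 to -74 and a cAMP response element core at -67 to -62.

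Intensities are linear and as deposited, and differences are on the scale log2(intensity + 16), which understates changes of dim probe sets. A probe set was tested with limma where its mean log2 value over the 4 arrays reached the 40th percentile, equal to an intensity near 543.8. Adjusted p values are limma's, corrected by Benjamini-Hochberg over the 18625 probe sets tested. Of the 9 member probe sets, 5 were tested, for Egr1, Egr2, Nab1 and Nab2. The 4 that lay under the filter were both of Egr4, that of Egr3 and the dimmer one of Egr2. Across the array 11.7% of tested probe sets rose and 19.4% fell at an adjusted p under 0.05. The 5 tested member probe sets each rose, and 0 fell, also at an unadjusted p under 0.05. The Egr2 probe set among them passed the filter only through its immobilized readings, so this count is a description.

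Egr1, the best studied member and the one present at rest in many tissues, read 7129 and 3087 unstressed and 41275 and 33931 immobilized. Every immobilized reading stood above every unstressed one, by 4.76-fold at the nearest. The mean intensity went from 5108 ± 2858 to 37603 ± 5193 (SD, n = 2 per group). The log2 rise of Egr1 was 2.99 ± 0.35 (SE, 2 arrays per group), or 7.95-fold, at an adjusted p of 0.00172 by limma and with 95% bounds of 2.15 and 3.83. Larger rises were seen at 0.773% of tested probe sets.

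The 2 unstressed arrays differed by 2.31-fold at Egr1, the widest gap within a group at any of the 9 probe sets. The size of the rise therefore depended on which baseline was used. The log2 difference was 3.59 without unstressed 1 and 2.39 without unstressed 2, and the call held in both cases. Among 19 other immediate early genes, 6 read higher on unstressed 1, with a median log2 gap of -0.28. Fos had the widest gap among those 6 (0.94), and Ccn1 the widest the other way (-1.45). Unstressed 1 also had more signal from 7 of 8 chromaffin markers (median log2 gap 0.14) and less from 7 of 7 cortex markers (median -0.20). Over all tested genes the median gap was 0.01. The gap was wider at fibroblast markers, where 6 of 6 read higher on unstressed 1 (median 0.68). It was also wider at Schwann and sustentacular markers (4 of 4, median 0.43) and in a list of myelin and Schwann cell genes (6 of 6, median 0.64). The part of these in the baseline of Egr1 was not tested. In bulk tissue, fewer cells of a type and less RNA per cell cannot be told apart. Both immobilized readings of Egr1 lay above the 99th percentile of their array (36447 and 30549), and whether the bright end narrows the difference was not tested.

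Egr2, known as Krox20 and required by Schwann cells to make myelin, was measured by 2 probe sets that read very differently. Probe set 1387306_a_at read 466 and 401 unstressed and 1207 and 1334 immobilized. The groups did not overlap, and the arrays within each group lay close, at 1.16-fold and 1.11-fold apart. The log2 rise was 1.52 ± 0.23 (SE, 2 arrays per group), or 2.87-fold, at an adjusted p of 0.00387 by limma and with 95% bounds of 0.98 and 2.05. Without immobilized 2 the difference was 1.45 and its adjusted p in limma was 0.0625.

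The other Egr2 probe set, 1398266_a_at, read 52.9 and 80.1 unstressed and 70.2 and 71.6 immobilized. These readings overlapped, and all 4 lay inside the range of the array's 27 control probe sets for Bacillus transcripts, which read 2.18 to 257. No reading can therefore be told from background, and the 2 probe sets of Egr2 cannot be set against each other. The rise of Egr2 rests on 1 probe set.

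Egr3, an Egr family member best known from muscle spindles and lymphocytes, read 407 and 428 unstressed and 462 and 303 immobilized. The groups overlapped, with the immobilized arrays holding both the highest and the lowest reading. The log2 difference was -0.15, and the fit of all probe sets without the filter gave a 95% interval of -0.98 to 0.68 and an adjusted p of 0.818 in limma. For this probe set, a rise as large as that of Egr1 or Egr2 lay outside this interval, and small changes in either direction lay inside it. Its lower immobilized reading was 1.18 times the highest of the Bacillus controls, and Egr3 had only this 1 probe set. How well it follows the transcript was not tested, so a rise of the gene is not excluded.

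Egr4, also called NGFI-C and found mainly in the nervous system, gave 2 answers. Probe set 1387442_at read 26.7 and 18.3 unstressed, inside the range of the Bacillus controls, and 284 and 424 immobilized, above every reading of those controls. The lower immobilized reading was 1.11 times the brightest control reading. The log2 difference was 3.25, but it was 3.91 with an offset of 1 and 2.25 with an offset of 64. Since its baseline was not shown to lie above background, its size depends on the offset, and it lay above that of Egr1 with offsets of 1 and 16 and below it (2.98) with 64. It lay under the filter and was not tested; the fit without the filter gave an adjusted p of 0.00553 in limma, with 6.69% of all 31042 probe sets rising in that fit.

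The brighter Egr4 probe set, 1375784_at, read 635 and 390 unstressed and 493 and 354 immobilized. Its groups overlapped: the lower unstressed reading lay between the 2 immobilized ones. The log2 difference was -0.24, with a 95% interval of -1.13 to 0.64 and an adjusted p of 0.709 in limma from the fit without the filter. A rule that keeps a gene's brightest probe set would report only this one. At the offset of 16 the intervals of the 2 Egr4 probe sets did not overlap, since the other ran from 2.20 to 4.30. Where on the transcript each lies was not analysed here.

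**Figure D2:**
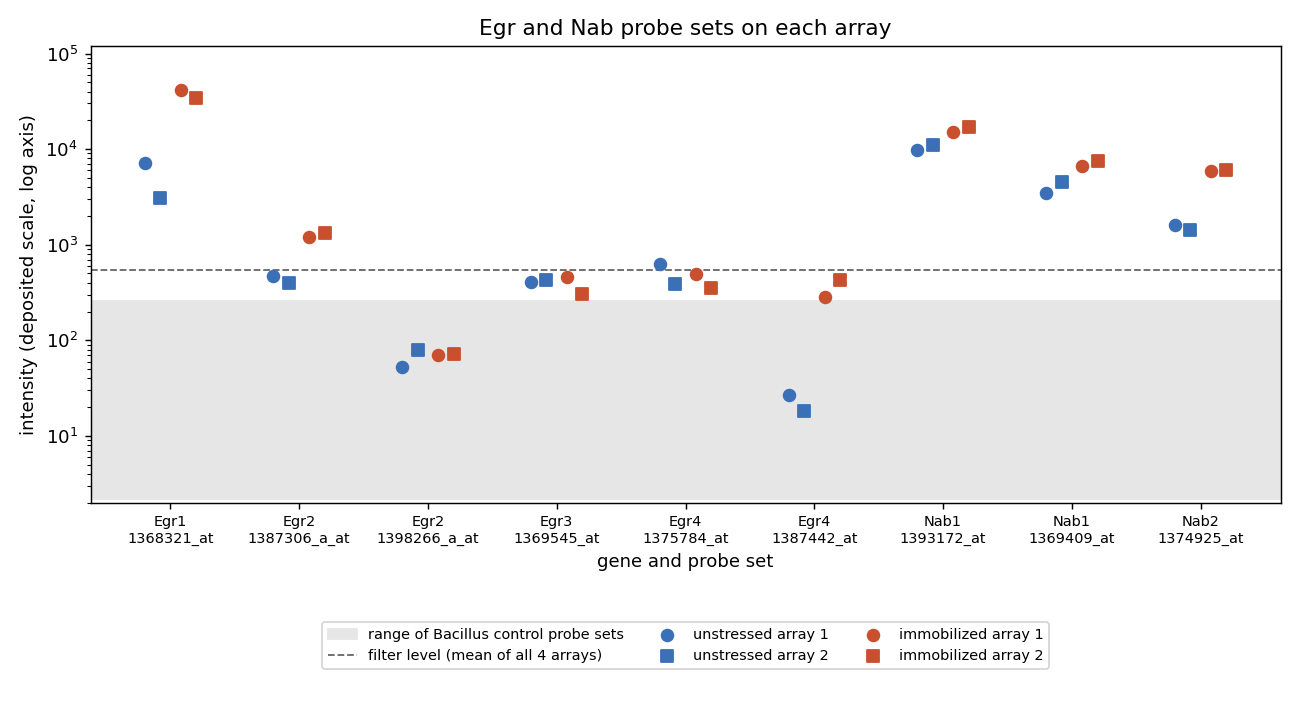
Deposited intensity (log axis) of the 9 Egr and Nab probe sets on each of the 4 arrays, with the range of the Bacillus controls in grey and the filter level dashed. The groups are separate at Egr1, at 1 probe set each of Egr2 and Egr4, and at all probe sets of Nab1 and Nab2, and they mix at the other 3.

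Nab2, the corepressor that Egr proteins induce, read 1603 and 1441 unstressed and 5952 and 6063 immobilized. The groups were far apart and each was tight, since the arrays within a group differed by 1.11-fold and 1.02-fold. The mean intensity went from 1522 ± 114 to 6008 ± 78.5 (SD, n = 2 per group). The log2 rise of Nab2 was 1.97 ± 0.15 (SE, 2 arrays per group), or 3.92-fold, at an adjusted p of 3.50e-04 by limma and with 95% bounds of 1.62 and 2.33. Larger rises were seen at 1.89% of tested probe sets. Among the members this was the rise with the smallest adjusted p, and its call held under each alternative run.

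Nab1, the corepressor with the steadier known expression, was measured by 2 probe sets that moved the same way. Probe set 1393172_at read 9669 and 10954 unstressed and 15136 and 17200 immobilized. The groups did not overlap, with the nearest readings 1.38-fold apart. Its log2 rise was 0.65 ± 0.13 (SE, 2 arrays per group), or 1.57-fold, at an adjusted p of 0.0125 by limma. The dimmer probe set 1369409_at read 3478 and 4498 unstressed and 6703 and 7462 immobilized, again without overlap. Its log2 rise was 0.84 ± 0.16, or 1.78-fold, at an adjusted p of 0.0101 by limma. Leaving out immobilized 1 ended both calls (0.74 and 0.91, with limma's adjusted p at 0.0518 and 0.0709), and so did leaving out immobilized 2 (0.56 and 0.76, at 0.101 and 0.110). The mean of the 2 probe sets had a difference of 0.74. Larger rises than those of Nab1 were seen at 11.4% and 8.23% of tested probe sets.

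The 95% interval of Nab2, 1.62 to 2.33, lay above those of both Nab1 probe sets, 0.33 to 0.97 and 0.45 to 1.22. The difference between the 2 genes was not itself tested. Over all 9 probe sets the groups did not overlap at 6, each higher when immobilized, against 23.3% of all 31042 probe sets that did not overlap in that direction.

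**Figure D3:**
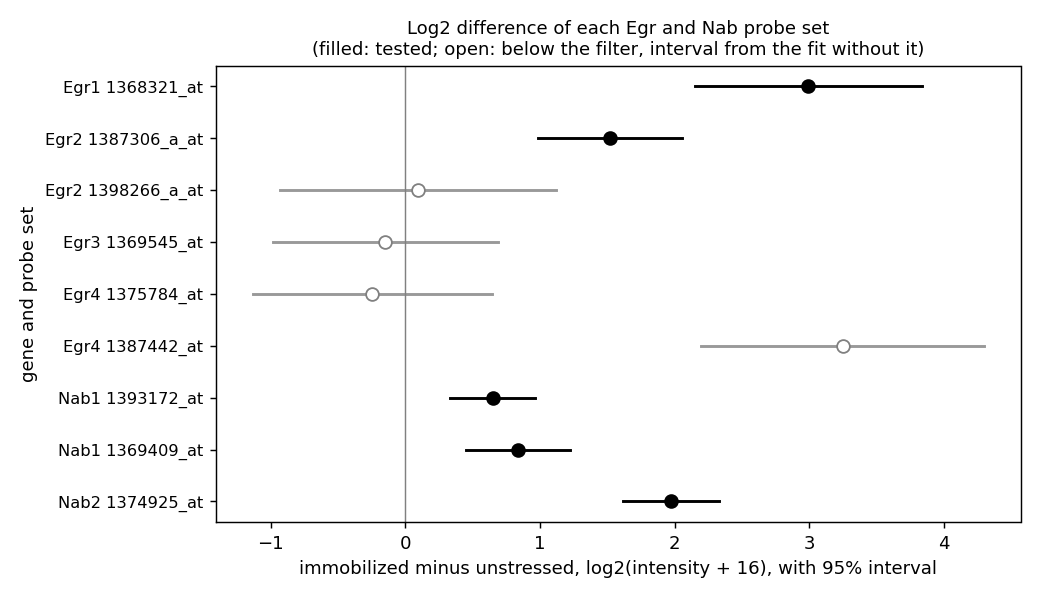
Log2 difference, immobilized minus unstressed, with its 95% interval for each of the 9 probe sets; filled points were tested and open points lay under the filter. The Egr1, Nab2 and Nab1 intervals and 1 each of Egr2 and Egr4 lie above 0, and the other 3 span 0.

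Centring each array on its median moved all probe sets alike. It took the median log2 difference of all tested probe sets from -0.12 to 0.02 and the share of calls that were rises from 37.6% to 53.2%. The member differences under that centring were 3.13 for Egr1, 1.66 for Egr2, 2.11 for Nab2 and 0.79 and 0.98 for Nab1, and each kept its call. Median intensities ran from 827 to 955 over the 4 arrays. The 3' over 5' ratio of the beta-actin control, which rises as RNA degrades, ran from 1.90 to 2.15 on the unstressed arrays and from 1.62 to 1.99 on the immobilized arrays.

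**Figure D4:**
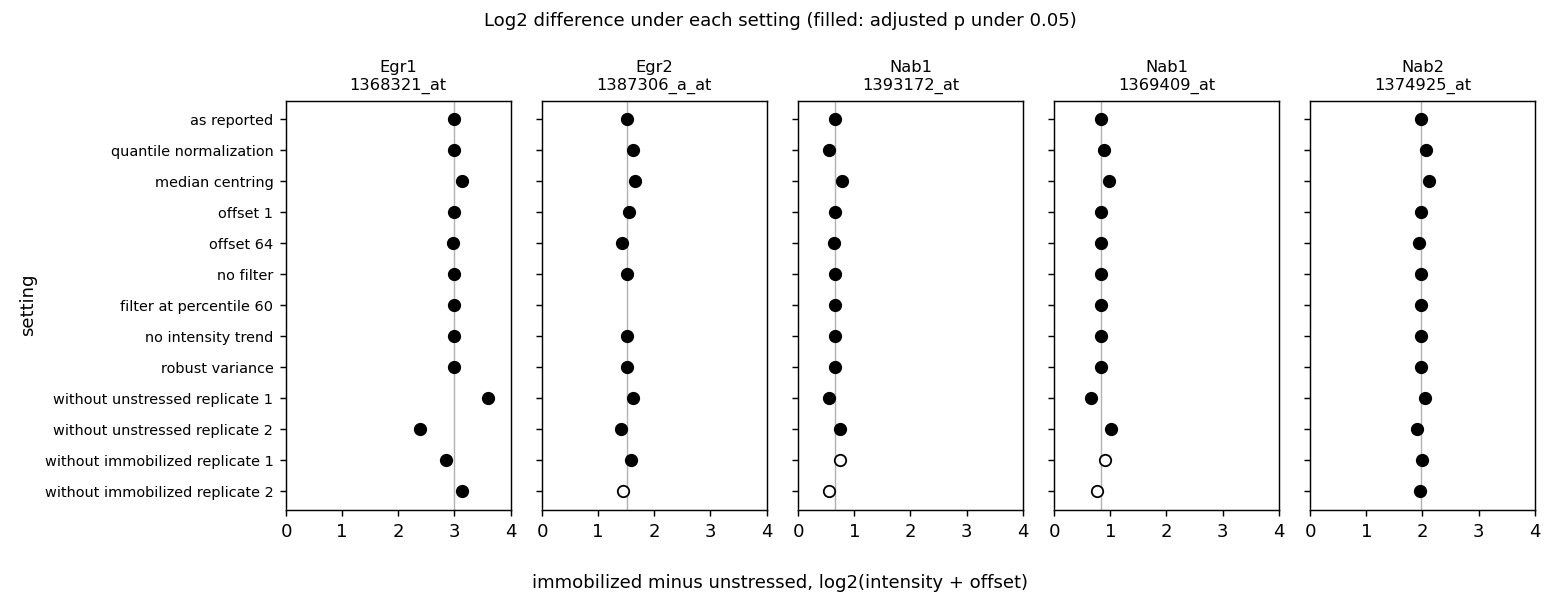
Log2 difference of the 5 tested probe sets as reported and under each alternative setting, filled where the adjusted p was under 0.05. The points of Egr1 spread between 2.39 and 3.59 with the unstressed array left out, Nab2 stays filled throughout, and open points appear for Egr2 and Nab1 with an immobilized array left out.

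The labelled tissue was checked against markers. All 8 named chromaffin markers passed the filter, and 1 rose: Slc18a2, a vesicular monoamine transporter, by 1.5. Their summed intensity was 273616 to 297864 unstressed and 262027 to 370606 immobilized. Cortex markers were also bright, summing to 259038 to 295150 and 208577 to 277489, so the arrays held cortical RNA too. Of 7 cortex markers, Nr5a1 rose by 0.47 and Nr0b1 changed by -1.48. Those 2 calls were lost with either immobilized array left out. Cyp11b1 and Cyp11a1, enzymes of the cortex, had differences of -0.64 and -0.35 and did not pass. Both passed after quantile normalization (-0.76 and -0.25, adjusted p = 0.0123 and 0.0249 in limma), and Cyp11b1 also without unstressed 1 (-0.95, adjusted p = 0.00356).

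Because Schwann cells require Egr2 to make myelin, Schwann and sustentacular markers were also read. The 6 that are named here summed to 10247 to 13574 unstressed and 12073 to 13375 immobilized. Gfap rose by 1.76, having passed the filter only through its immobilized readings, S100b changed by -0.59 and passed, Sox10 and Mbp did not pass, and Fabp7 and Foxd3 lay under the filter and inside the range of the Bacillus controls on every array. No reading of Fabp7 or Foxd3 can therefore be told from background. The call on S100b was lost with either immobilized array left out (adjusted p = 0.0993 and 0.135 in limma). Of 7 tested endothelial markers Flt1 rose by 1.45 and Kdr changed by -0.79. Another probe set of Flt1 had 0.14 and did not pass, and the Flt1 call was lost without immobilized 1. The call on Kdr was lost after median centring, without the intensity trend and with either immobilized array left out. Fibroblast, macrophage, lymphocyte and red blood cell markers had 0 rises and 0 falls in limma among 6, 7, 1 and 2 tested genes, and 0, 1, 1 and 0 of these had an unadjusted p under 0.05. The part of these cell types in the member differences was not tested.

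Upstream of the Egr genes stand the kinases of the ERK cascade, SRF with its ternary complex factors and coactivators, and CREB with its coactivators. Of 20 such genes 14 were named and tested, and 3 rose and 3 fell, with a median log2 difference of -0.02 against -0.14 for all 10320 tested genes, of which 11.2% rose and 21.8% fell. Crebbp, the coactivator CBP, rose by 0.77, Rps6ka3, an ERK-activated kinase, by 0.76, and Srf by 0.73. The ternary complex factor genes Elk4 and Elk3 changed by -0.77 and -0.50, and Creb1 by -0.59. Rps6ka5 and Elk1 had 0.59 and -0.46 and did not pass. Rps6ka5 passed after median centring and without unstressed 1 (0.73 and 0.88, adjusted p = 0.0407 and 0.00494 in limma). The counts were 1 and 0 without immobilized 1, 0 and 1 without immobilized 2, and 5 and 1 after median centring. Probe sets of a gene also disagreed: those of Srf ranged from 0.10 to 0.73, those of Creb1 from -0.59 to 0.01 and those of Crebbp from 0.00 to 0.77.

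Other immediate early genes driven by SRF or CREB rose on the same arrays as Egr1, Egr2, Nab1 and Nab2. Of 20 in the list, 19 were named and tested, 19 rose and 0 fell, also at an unadjusted p under 0.05, with a median of 2.33. Among all tested genes 11.2% rose and 21.8% fell. Of the 19, 6 passed the filter only through their immobilized readings (Fos, Fosb, Fosl1, Ccn1, Maff and Atf3), so the full count is a description. The 13 whose unstressed mean lay above the filter rose too. Fosb, a partner in AP-1, went from 34.5 and 45.4 to 8073 and 11293. The next largest log2 differences were those of Atf3 (5.24), Maff (5.13), Fos (4.97), the matricellular gene Ccn1 (4.04) and Klf4 (3.60). Unstressed readings of Fosb and Atf3 and 1 each of Maff and Ccn1 lay inside the range of the Bacillus controls. The 7.95-fold rise of Egr1 lay inside the range of this list, whose log2 differences ran from 0.55 to 7.42.

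Genes that textbooks give as Egr targets were mixed. Of 38, 31 were named and 27 tested: 10 rose, 1 fell and 16 did not pass, with a median of 0.22. The shares over all tested genes were 11.2% rising and 21.8% falling. Ptges, Ccl2 and Plaur passed the filter only through their immobilized readings. Of the 24 tested genes with an unstressed mean above it, 7 rose. Vgf, a secreted peptide precursor, rose by 4.74 ± 0.37, Ptges, a prostaglandin E synthase, by 2.99 ± 0.28, and Ccl2, a monocyte chemokine, by 2.91 ± 0.22 (SE, n = 2 per group). The growth arrest gene Gadd45a rose by 2.88, Plaur, the urokinase receptor, by 2.79, and Icam1, an adhesion molecule, by 2.37. The single fall was that of the membrane protease Mmp14, named after its values were seen, at -1.36 and at -1.98 by a second probe set. One unstressed reading of Ptges lay inside the range of the Bacillus controls, and a dimmer probe set of it had 0.48. The largest differences that did not pass were those of Syn1 (0.55) and Ccnd1 (-0.48). Leaving out unstressed 1 brought Syn1 past the threshold (0.93, limma's adjusted p 0.022), and leaving out unstressed 2 did so for Ccnd1 (-0.65, 0.0323).

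The catecholamine genes of that list stood apart from its risers. Pnmt read 39974 and 38605 unstressed and 58278 and 43494 immobilized, a difference of 0.36 ± 0.18 (SE) that did not pass, limma's adjusted p being 0.171. It passed after quantile normalization (0.41, adjusted p = 0.00609 in limma) and without immobilized 2 (0.57, adjusted p = 0.0448). Th and Dbh, which precede it in the pathway, had 0.01 and 0.09. Every reading of Pnmt, Th and Dbh lay above the 99th percentile of its array (30002 to 36447). Whether the bright end narrows their differences was not tested.

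The list of myelin and Schwann cell genes tied to Egr2 gave no call among its tested genes. It was not limited to genes that Egr2 drives, and Sox10 and Ncam1 were among those tested. Of 15, 12 were named and 6 tested, with 0 rises and 0 falls in limma, and 1 fall and 0 rises at an unadjusted p under 0.05. Their median was 0.21. Over all tested genes 11.2% rose and 21.8% fell, and 6 genes are too few to set this list apart from that. Among the tested genes, Cnp and Mbp had the largest differences, -0.59 and 0.48. Without unstressed 1, Mbp and Pmp22 passed (0.83 and 0.57, adjusted p = 0.00219 and 0.028 in limma). Cnp passed in the other direction without unstressed 2 (-0.70, adjusted p = 0.0253) and after quantile normalization (-0.64, adjusted p = 0.037). The other 6 genes with a probe set lay under the filter. Of these, Pou3f1, Mag, Dhh and Gjb1 had differences of 1.73, 1.14, 1.05 and 0.54. Mal and Cldn19 had -1.21 and -1.11. In the fit without the filter 1 gene of the list rose and 0 fell, with 6.69% of all 31042 probe sets rising in that fit.

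The partners through which Nab proteins repress were too few to be set apart from all tested genes, of which 11.2% rose and 21.8% fell. Of 16 genes of the NuRD complex and other Nab partners, 13 were named and tested, 0 rose and 2 fell in limma, or 0 and 3 at an unadjusted p under 0.05, with a median of -0.17. Mta3 changed by -1.02 and Chd4, the NuRD helicase that binds Nab2, by -0.51. Another tested probe set of each gene had -0.29 and -0.27 and did not pass. Leaving out immobilized 1 ended both calls (limma's adjusted p 0.0883 and 0.0916). That of Chd4 was lost after median centring as well (-0.37, adjusted p = 0.120 in limma). It was also lost without the filter, without the intensity trend, and with unstressed 2 or immobilized 2 left out. Ddx20 and Gatad2a had -0.47 and -0.33 and did not pass.

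Other factors read GC-rich boxes like those of the Egr proteins. Of 8 such genes 5 were tested, and 2 rose and 1 fell, against 11.2% and 21.8% of all tested genes. Klf10 rose by 1.07 and Klf9 by 0.46, and Sp1 changed by -0.82. The call on Klf9 was lost after quantile normalization (0.33, adjusted p = 0.0512 in limma) and with any array but unstressed 2 left out, and 3 of the 4 probe sets of Sp1 did not pass. Zbtb7b and Klf16 had -0.51 and -0.38 and did not pass, though Zbtb7b did without unstressed 1 (-1.03, adjusted p = 0.0245 in limma). Wt1, Sp3 and Sp4 lay under the filter.

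**Figure D5:**
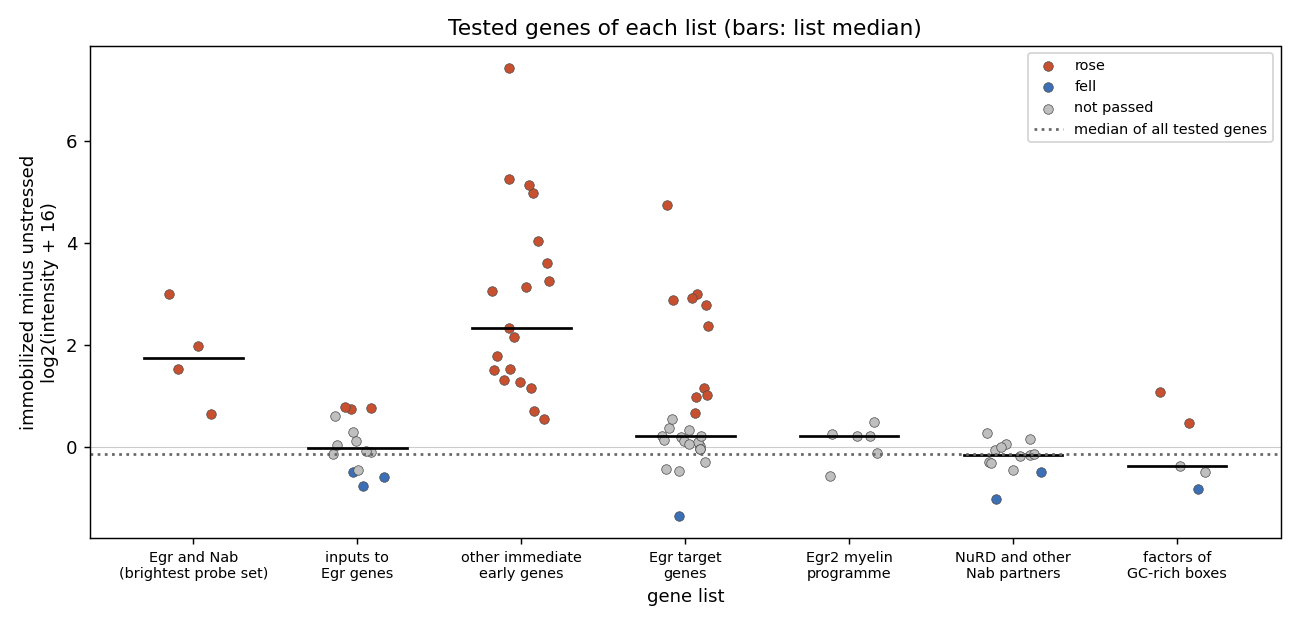
Log2 difference of each tested gene, 1 probe set per gene, in the Egr and Nab list and 6 related lists, with list medians as bars and the median of all tested genes dotted. All points of the other immediate early genes lie above 0, whereas targets, inputs and Nab partners lie on both sides.

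For each called member gene, the genes with the most similar course over the 4 arrays were found among 10253 others, by the Euclidean distance between log2 values set relative to the unstressed mean. Nearest to Egr1 were Ctxnd1 (distance 0.241), Sh2d5 (0.466) and Spry2 (0.515), an inhibitor of growth factor signalling. Each shared the higher reading on unstressed 1: Ctxnd1 read 2208 and 1095 unstressed and 12189 and 11993 immobilized. Nearest to Egr2 were Lysmd3 (0.0727), Ttc9 (0.0850) and the clock gene Per1 (0.0949), which read 2230 and 1940 unstressed and 5864 and 6681 immobilized.

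Nearest to Nab2 were Plat, the tissue plasminogen activator (0.0714), Ppp1r10, a regulator of protein phosphatase 1 (0.103), and Ezr, which links membrane to cytoskeleton (0.137). Plat read 3328 and 3109 unstressed and 12938 and 13143 immobilized. Nearest to Nab1 were Amotl2 (0.0391), the chromatin gene Arid4b (0.0472) and the transcription factor gene Yy1 (0.0568), whose 3 tested probe sets ranged from -0.35 to 0.62. With 4 arrays in 2 groups, this likeness measures only the size of the difference and the gaps within groups.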

How the data were processed

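The authors deposited linear intensities for 31099 probe sets on each of 4 arrays. How they summarised probes is not stated in labels or header. The values show that the deposited intensities had been scaled to 1 trimmed mean, 2501 after leaving out 2% at each end, so no further scaling was applied. The 57 control probe sets were left out. Symbols came from GEO's platform annotation and were checked through Entrez identifiers against RefSeq's GRCr8 gene table (20758 of 20826 found, 0 changed).

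Groups came from the submitters' sample descriptions, with replicates numbered in accession order, which pairs nothing. Log2(intensity + 16) went into lmFit and eBayes of limma 3.58.1 (R 4.3.3) with an intensity trend, two-sided, at a Benjamini-Hochberg adjusted p of 0.05 over 18625 probe sets, those whose mean log2 reached the 40th percentile. The fit had 6.81 degrees of freedom. Its moderated spread gave the SEs and the 95% intervals. An exact two-sided permutation test of 2 against 2 has 0.33 as its smallest p and was not used. The fit was also run on simulated data with known changes. These were drawn under the fit's own model, so they cannot show whether the arrays meet it. The members and lists were chosen with earlier results of these data known.

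In the lists, the probe set of highest mean log2 stood for its gene. Genes to name were the members, the 3 most similar genes to each called member, the largest called members of each list (up to 6), the 2 largest that did not pass, and Th, Dbh, Pnmt, Cyp11b1 and Cyp11a1. Alternatives were quantile normalization, median centring, offsets of 1 and 64, no filter or the 60th percentile, no trend, robust variance, a threshold of 0.10, averaging a gene's probe sets, and each array left out. Motifs were searched with Python 3.11.15, and plots drawn with matplotlib 3.10.9.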

Additional observations from a re-analysis of the deposited data

How the results depend on the processing

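The count of Egr and Nab probe sets that rose was 5, and with 1 array left out it ran from 2 to 5: it was 3 without immobilized 1 and 2 without immobilized 2. It was 6 without the filter, where 1387442_at of Egr4 joined, and 4 at the 60th percentile, where Egr2 was no longer tested. The count that fell was 0 under each alternative run. The differences of the 5 tested probe sets kept their direction under each alternative, and those of Egr1 and Nab2 kept their calls. Over all tested probe sets the rises ran from 785 to 2638 and the falls from 893 to 3800 with 1 array left out, and the lowest counts came without immobilized 2 (973 rises and 1088 falls without immobilized 1). In those fits the spread came from the complete group alone and was taken to hold for the single array too. Rises among the other immediate early genes ran from 15 to 19 over the alternatives and those among Egr targets from 7 to 13. No paired analysis was possible because the labels give the groups no shared replicate numbers. Dim readings limit Egr3, Egr4 and the second probe set of Egr2, which carry no detection call here.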
